A study of Mus musculus with 2 samples.

Results

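The carbonic anhydrases described here are 10 genes, Car1, Car2, Car3, Car4, Car5a, Car7, Car8, Car12, Car13 and Car14, out of 18193 genes with their own probe set on a mouse expression array. They were chosen by name from the family, as forms of hepatic, erythroid and epithelial cells, and with the values of both arrays already known. The list also holds Car7 and Car8, which are described below from neurons. Every probe set that the platform annotation gave to exactly 1 of these genes was used, which made 22 probe sets of 45101. The samples were whole livers of embryos at E14.5 on a mixed NMRI/C57Bl6 background. Liver of the conditional knockout Prox1 f/f;Foxa3Cre, called the knockout below, was set against wild-type liver, with 1 sample each. In the knockout a Cre recombinase under Foxa3, a gene of gut and liver endoderm, recombines floxed alleles of Prox1, whose product is a homeodomain transcription factor found in liver progenitors. Such a Cre is meant for endoderm-derived cells such as hepatoblasts, and not for the blood, vascular and mesenchymal cells of the organ. Neither the number of embryos per sample nor their sex is stated in the labels.

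Carbonic anhydrases speed the interconversion of carbon dioxide and bicarbonate. Family members differ in where they work: in the cytosol, in mitochondria, at the outer face of the plasma membrane, or in secretions. In red cells they load carbon dioxide into plasma as bicarbonate, in hepatocyte mitochondria they supply bicarbonate to carboxylating enzymes of the urea cycle and gluconeogenesis, and in ductal epithelia they take part in bicarbonate secretion. Fetal liver at this stage forms blood, so its RNA comes from erythroid cells as well as from hepatoblasts.

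Signals are MAS5 values, a linear intensity that summarises the probes of a probe set, and each array had been scaled to the same average. With 1 array per genotype there was no replicate, no standard deviation and no test, so each value is a single measurement and each difference is between these samples. In whole tissue, fewer cells of a type and less RNA per cell cannot be told apart. Signals under 112.6, the higher of the arrays' median signals, were treated as not measured and raised to that floor before taking log2. A gene with 1 array under the floor has only a bound, written "at least". Where a gene had several probe sets, the one of highest mean log2 signal stood for it, differences are knockout minus wild type on the log2 scale, and a change was counted at 2-fold. Signals of different probe sets were not read as relative amounts of RNA, because probe sets differ in brightness for the same amount of RNA. Brightness served to choose a gene's probe set, to group genes of like signal and to sum marker lists, in which bright probe sets weigh most.

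Prox1 itself was lower in the knockout on each of its 3 probe sets, at 221.8 in the knockout against 340.3 in wild type on the brightest. The labels do not place those probe sets inside or outside the deleted part, so this reading does not measure the deletion. The arrays differed in sex-linked RNA as well. Xist, which coats the inactive X chromosome, read 365.7 in the knockout and 11467 in wild type, and the Y-linked Eif2s3y read 1972 in the knockout and 0.87 in wild type. The part of this difference in the results below was not tested.

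Of the 10 carbonic anhydrases, 8 were measured on at least 1 array, namely Car1, Car2, Car3, Car5a, Car7, Car8, Car13 and Car14. Only Car3 and Car7 were at least 2-fold lower in the knockout, 0 were at least 2-fold higher, and 6 lay between. Over all 11397 measured genes, 2.13% were lower by 2-fold or more, 3.27% were higher by that size, and 5.4% differed by it either way. These shares are background to the member counts, from which nothing is read, since the members were listed with this contrast in view. The median log2 difference was -0.07 over the 8 measured members and 0.03 over all measured genes. Measured members lay evenly around 0, with 4 below and 4 above. At the level of single probe sets, 10 of the 22 were lower and 12 were higher in the knockout before the floor was applied, and 10 of the 22 were under the floor on both arrays.

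**Figure D1:**
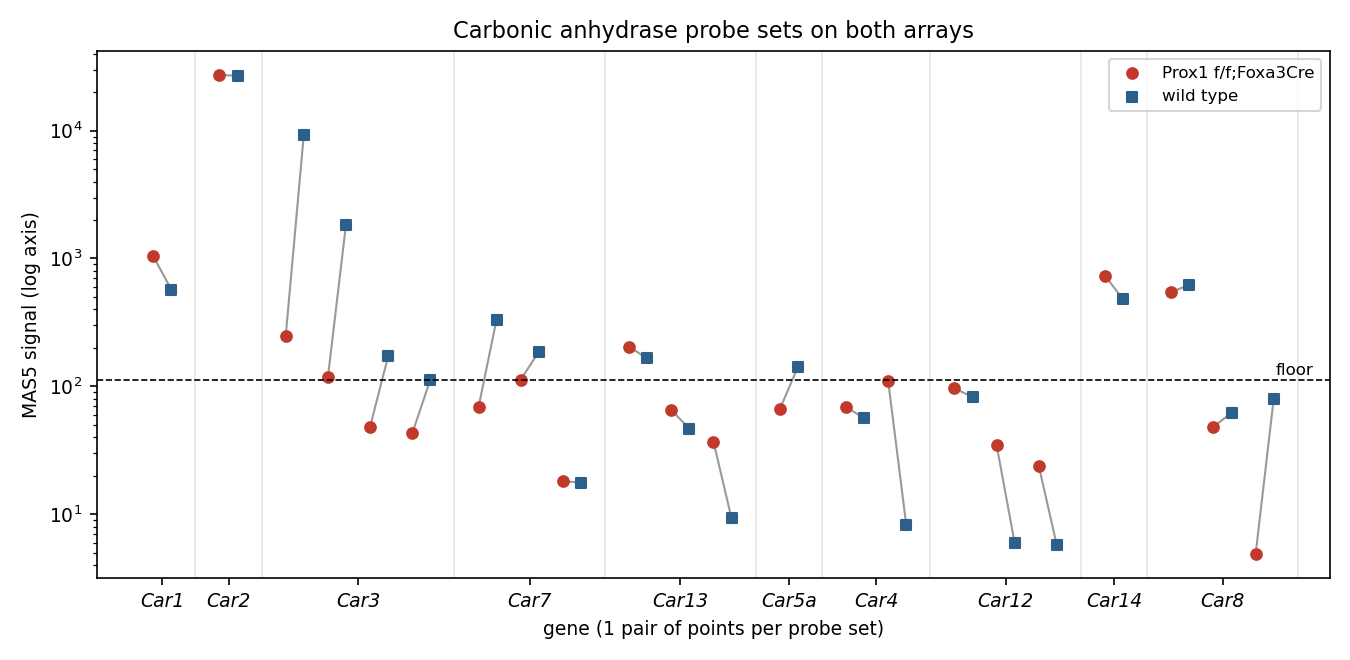
MAS5 signal (log axis) of all 22 probe sets of the 10 genes, with a circle for the Prox1 f/f;Foxa3Cre array left of a square for the wild-type array and a line joining the pair. The dashed line is the floor of 112.6, and all 4 Car3 pairs slope upward to wild type while the Car2 pair is flat.

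Car3 differed most. It encodes a cytosolic carbonic anhydrase of low catalytic activity that is abundant in adult liver, skeletal muscle and fat. Its brightest probe set read 249.7 in the knockout and 9304 in wild type, which is 37.3-fold lower and a log2 difference of -5.22. This was the lowest log2 difference among the 10221 genes measured on both arrays, each taken at its brightest probe set. Genes with only a bound were left out of that ranking. The sex-linked Xist had a difference of similar size, -4.97 on its brightest probe set and a bound of -5.67 on another. The 500 genes of nearest mean signal had a middle 95% of log2 differences from -0.63 to 0.72, and Car3 lay far outside that range. Those genes were matched on the mean over both arrays, and Car3 itself read far from that mean on each array.

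The remaining Car3 probe sets all read lower in the knockout, by different amounts. The second, which the annotation ties to the same RefSeq transcript, read 118.1 in the knockout, barely above the floor, and 1844 in wild type, 15.6-fold lower. The dimmer pair share an expressed sequence tag as their source. The first of these read 48.3 in the knockout and 171.9 in wild type, a bound of at least 1.53-fold lower. The last read 42.9 in the knockout and 112.7 in wild type, only just above the floor, so that it gives a direction and no bound of use. All 4 probe sets thus had the same direction, and the size of the difference rests on the bright pair. Over the 4, with 2 of them taken at their bound, the median log2 difference was -2.29. Some signal remained on the brightest probe set, at 249.7, which is above the floor.

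Muscle and fat are the other main sources of Car3, and their marker genes were largely undetected. Of 12 muscle markers, 3 were measured. They were the fast myosin light chain Mylpf at 436.4 in the knockout and 517.8 in wild type, the cardiac actin Actc1 at 80.6 in the knockout and 192.6 in wild type, and the skeletal actin Acta1 at 157.3 in the knockout and 72.8 in wild type. The defining muscle genes were below the floor on both arrays, with Myod1 at 31.4 in the knockout and 34.4 in wild type, and Ckm at 38.0 in the knockout and 52.5 in wild type. The summed signal of the 12 muscle markers was 982 in the knockout and 1119 in wild type. Of 10 adipocyte markers, 8 had their own probe set and 3 were measured, none of them confined to fat. These were Fabp4 at 714.7 in the knockout and 749.1 in wild type, Lpl at 6615 in the knockout and 6357 in wild type, and Cebpa at 578.2 in the knockout and 1174 in wild type. Adiponectin (Adipoq, 40.3 in the knockout and 6.74 in wild type) and leptin (Lep, 3.82 in the knockout and 6.98 in wild type) were below the floor. The summed adipocyte signal was 8088 in the knockout and 8339 in wild type, most of it from Lpl. The part of muscle or fat in the Car3 difference was not tested.

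A share of the hepatocyte markers was lower in the same comparison. Of 20 listed, 17 had their own probe set and 16 were measured. At the 2-fold mark 7 were lower, 0 higher and 9 between, with a median log2 difference of -0.90. The extremes were Ahsg (fetuin-A, -3.73), the cytochrome P450 Cyp3a11 (a bound of -3.25), Apoh (beta-2-glycoprotein I, -2.60) and Serpinc1 (antithrombin, -1.65). Among those between were the major secreted proteins albumin (Alb, 0.03), alpha-fetoprotein (Afp, -0.05) and transthyretin (Ttr, -0.05), with apolipoprotein Apoa2 at -0.30 and hemopexin (Hpx) at -0.31. Alb, Afp, Ttr and Apoa2 read above 20000 on both arrays, where differences can be compressed, so their near-equal readings may understate a difference. The summed signal of the 17 was 186527 in the knockout and 259015 in wild type, and such bright probe sets made up most of it. Car3 had a lower log2 difference than each hepatocyte marker measured on both arrays. Cyp3a11, at 32.9 in the knockout and 1068 in wild type, has only a bound and cannot be ranked against Car3. The part of fewer or less mature hepatocytes in the Car3 difference was not tested.

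**Figure D2:**
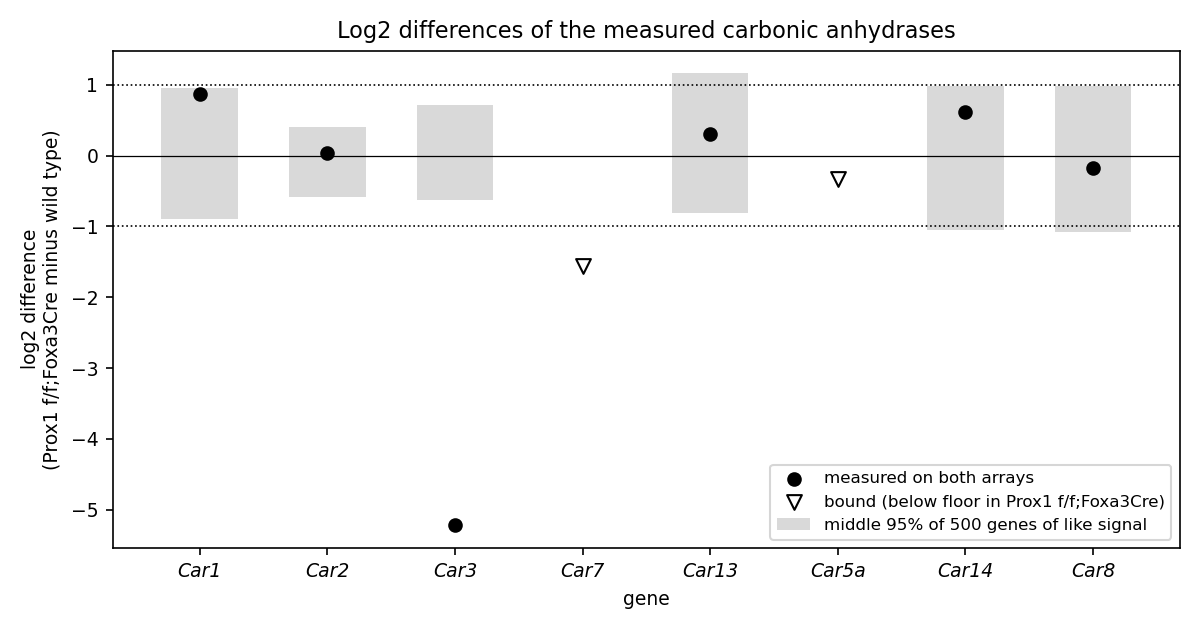
Log2 difference (knockout minus wild type) of the 8 measured members, with filled points for genes measured on both arrays and open triangles for bounds, whose true value lies at the triangle or lower. Grey bars give the middle 95% of the 500 genes nearest in mean signal, dotted lines mark 2-fold, and Car3 at -5.22 is the filled point outside its bar.

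The erythroid cytosolic forms did not share the Car3 difference. Car2, a fast isozyme of red cells, osteoclasts and ductal epithelia, read 27393 in the knockout and 26764 in wild type on its single probe set, a log2 difference of 0.03. Car2 signal lay near the top of the scale, where differences can be compressed. Of 92 genes above 20000 on at least 1 array, 0 were 2-fold apart, and their log2 differences ran from -0.45 to 0.86. Car1, the abundant isozyme of mature red cells and also of colon epithelium, read 1044 in the knockout and 572.0 in wild type on its single probe set. It was 1.83-fold higher, a log2 difference of 0.87, under the 2-fold mark and inside the range of -0.90 to 0.96 found for genes of like signal.

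Erythroid markers were near equal on the arrays. Of 20 listed, 16 had their own probe set and 15 were measured, and 0 were 2-fold apart in either direction, with a median log2 difference of -0.09. Their summed signal was 153144 in the knockout and 164261 in wild type. The farthest was the transferrin receptor Tfrc at -0.58, followed by Tspo2 at 0.33, Hemgn at -0.32 and the erythroid transcription factor Gata1 at -0.30. Car1, at 0.87, was thus higher than each of the measured erythroid markers on the log2 difference scale, a statement about these single readings. The probe set of Hba-a1 was undetected, at 36.5 in the knockout and 60.5 in wild type, although fetal liver is rich in alpha globin.

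Car7 is a cytosolic isozyme known mainly from neurons. Its probe sets disagreed in size. The one of highest mean signal read 68.8 in the knockout and 333.1 in wild type, at least 2.96-fold lower and a log2 bound of -1.56. The second read 112.8 in the knockout, at the floor, and 185.8 in wild type, 1.65-fold lower and a log2 difference of -0.72. The third was under the floor on both arrays, at 18.2 in the knockout and 17.6 in wild type. The call of Car7 as 2-fold lower therefore rests on 1 probe set, and a floor at the 60th percentile gives it a log2 bound of -0.81, short of the mark.

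RefSeq lists several start sites for Car7, and the annotation used here does not tie a probe set to one of them. The 250 bases before each start (RefSeq, GRCm38.p6) are shown because the probe sets differ, with matches on either strand to 5 short motifs in capitals. The windows are in order of position, and the motifs were the TATA box TATAAA, the CCAAT box CCAAT, the GATA-factor core GATAA, the Krüppel-like factor core CACCC and CAAAGTCCA, a form of the HNF4 element.
Car7, chr8:104534450-104534699, plus strand: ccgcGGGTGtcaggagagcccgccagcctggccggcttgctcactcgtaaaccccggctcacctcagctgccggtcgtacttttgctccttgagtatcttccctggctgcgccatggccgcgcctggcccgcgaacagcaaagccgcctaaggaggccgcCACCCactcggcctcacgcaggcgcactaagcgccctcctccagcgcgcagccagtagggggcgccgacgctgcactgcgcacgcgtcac
Car7, chr8:104540557-104540806, plus strand: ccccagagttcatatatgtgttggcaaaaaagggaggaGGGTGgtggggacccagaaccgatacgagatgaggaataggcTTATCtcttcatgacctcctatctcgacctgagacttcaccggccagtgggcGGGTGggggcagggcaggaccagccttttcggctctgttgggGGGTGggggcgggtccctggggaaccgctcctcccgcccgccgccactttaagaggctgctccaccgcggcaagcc
Car7, chr8:104541059-104541308, plus strand: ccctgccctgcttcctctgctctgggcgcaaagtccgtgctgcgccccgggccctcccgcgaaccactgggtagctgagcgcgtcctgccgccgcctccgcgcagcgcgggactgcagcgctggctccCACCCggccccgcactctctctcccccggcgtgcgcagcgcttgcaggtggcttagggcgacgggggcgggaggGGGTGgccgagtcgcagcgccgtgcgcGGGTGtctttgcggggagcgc
CACCC or its reverse complement GGGTG occurred in each of these windows, and in 52% of all 32851 promoter windows of the same length. The middle window also held GATAA on the minus strand, which 22.6% of all windows hold. The windows were rich in G and C, at 69.6%, 62.4% and 76% in that order. These matches describe letters only.

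Car13, a further cytosolic member, was near the floor. It read 204.0 in the knockout and 165.1 in wild type on its brightest probe set, a log2 difference of 0.31, inside the range of -0.81 to 1.16 for genes of like signal. Its other probe sets were under the floor on both arrays, at 65.2 and 37.0 in the knockout against 46.7 and 9.29 in wild type.

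Car5a, the mitochondrial isozyme of hepatocytes, was measured in wild type only. It read 66.1 in the knockout and 141.2 in wild type on its single probe set. Because the knockout value lies under the floor, the difference is a bound of at least 1.25-fold lower, under the 2-fold mark. With the floor set lower, at 44.0, both values are measured, and Car5a was 2.14-fold lower with a log2 difference of -1.09. At signals this low the reading is imprecise.

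The 250 bases before the RefSeq start of Car5a (GRCm38.p6) are shown for comparison with Car7, as the other member that read lower and has an entry.
Car5a, chr8:121944913-121945162, minus strand: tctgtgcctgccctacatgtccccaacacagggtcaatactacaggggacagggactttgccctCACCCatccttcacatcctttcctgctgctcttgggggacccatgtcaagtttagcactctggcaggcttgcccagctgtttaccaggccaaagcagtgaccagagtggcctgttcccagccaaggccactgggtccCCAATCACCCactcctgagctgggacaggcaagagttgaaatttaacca
This window held CACCC at 2 positions and CCAAT at 1, which lies directly before the second CACCC and without overlap. CCAAT is found in 33.8% of all windows. Neither TATAAA (12.4% of all windows) nor CAAAGTCCA (0.384%) was found in the windows printed here.

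Among enzymes that consume bicarbonate, Cps1 was the one past the 2-fold mark. Of 8 listed carboxylating enzymes, 7 were measured, 1 was at least 2-fold lower and 0 were at least 2-fold higher, and 6 lay between. The median was -0.48, against 0.03 over all measured genes. Cps1, the mitochondrial entry enzyme of the urea cycle, read 427.6 in the knockout and 2580 in wild type, a log2 difference of -2.59. Pyruvate carboxylase (Pcx), the first step of gluconeogenesis from pyruvate, read 880.4 in the knockout and 1230 in wild type. Subunits of the carboxylases for propionyl-CoA (Pcca, -0.61, and Pccb, 0.16) and methylcrotonyl-CoA (Mccc1, -0.49, and Mccc2, -0.10) lay between, as did the fatty acid synthesis enzyme acetyl-CoA carboxylase (Acaca, -0.22). Acacb was under the floor on both arrays, at 51.7 in the knockout and 6.06 in wild type. A dim second probe set of Mccc1 had a bound in the other direction, 0.26.

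Of the forms anchored in the plasma membrane, Car14 was the one measured. Car14 is a transmembrane isozyme with its active site outside the cell, known in mouse from hepatocytes and kidney. It read 732.9 in the knockout and 478.5 in wild type on its single probe set, 1.53-fold higher and a log2 difference of 0.62, inside the range of -1.05 to 0.99 for genes of like signal. Car14 thus stood on the opposite side of 0 from Car3, Car5a and the median of the hepatocyte markers. Its 250 bases before the RefSeq start (GRCm38.p6) are given as those of a measured member that read higher.
Car14, chr3:95904686-95904935, minus strand: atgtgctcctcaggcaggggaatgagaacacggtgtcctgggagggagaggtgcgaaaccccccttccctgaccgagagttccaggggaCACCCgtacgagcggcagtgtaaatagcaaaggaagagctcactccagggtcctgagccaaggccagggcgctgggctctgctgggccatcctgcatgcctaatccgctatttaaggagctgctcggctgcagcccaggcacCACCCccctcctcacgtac
CACCC occurred at 2 positions and none of the other motifs was found in this window.

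Car4, a form tethered to the membrane by a lipid anchor, and Car12, a transmembrane form of ductal and other epithelia, were below the floor on both arrays. Car4 came close to it on 1 probe set, which read 110.1 in the knockout and 8.23 in wild type. The other Car4 probe set, which represents the gene, read 69.3 in the knockout and 56.1 in wild type. With the floor at 44.0 that first pair would give a log2 bound of 1.32 and the gene's own pair a difference of 0.30. Car12 read 96.5 in the knockout and 82.4 in wild type on its brightest probe set. Its dimmer probe sets read 34.6 and 23.8 in the knockout against 5.95 and 5.70 in wild type. All Car4 and Car12 probe sets thus read higher in the knockout, at signals under the floor. The array medians were 112.6 in the knockout and 101.1 in wild type. The part of this difference between the medians in the Car4 and Car12 readings was not tested.

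A few cholangiocyte and epithelial markers were higher in the same comparison. Of 16 listed, 14 had their own probe set and 10 were measured, and at the 2-fold mark 4 were higher, 0 lower and 6 between. The 4 were the keratin Krt19 (a log2 bound of 3.12), the claudins Cldn7 (2.66) and Cldn6 (2.50), and Epcam (1.28), each below the floor in wild type. The median over the 10 was 0.24, and the summed signal was 12066 in the knockout and 8499 in wild type. The part of this difference in the Car4, Car12 and Car2 readings was not tested.

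Car8 is a family member without catalytic activity that binds an inositol trisphosphate receptor in neurons. It read 547.9 in the knockout and 621.1 in wild type, a log2 difference of -0.18 inside the range of -1.08 to 0.99 for genes of like signal. Its other probe sets were under the floor on both arrays, at 48.4 and 4.89 in the knockout against 62.1 and 80.2 in wild type. All 3 pointed the same way, and the measured one did not approach 2-fold.

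**Figure D3:**
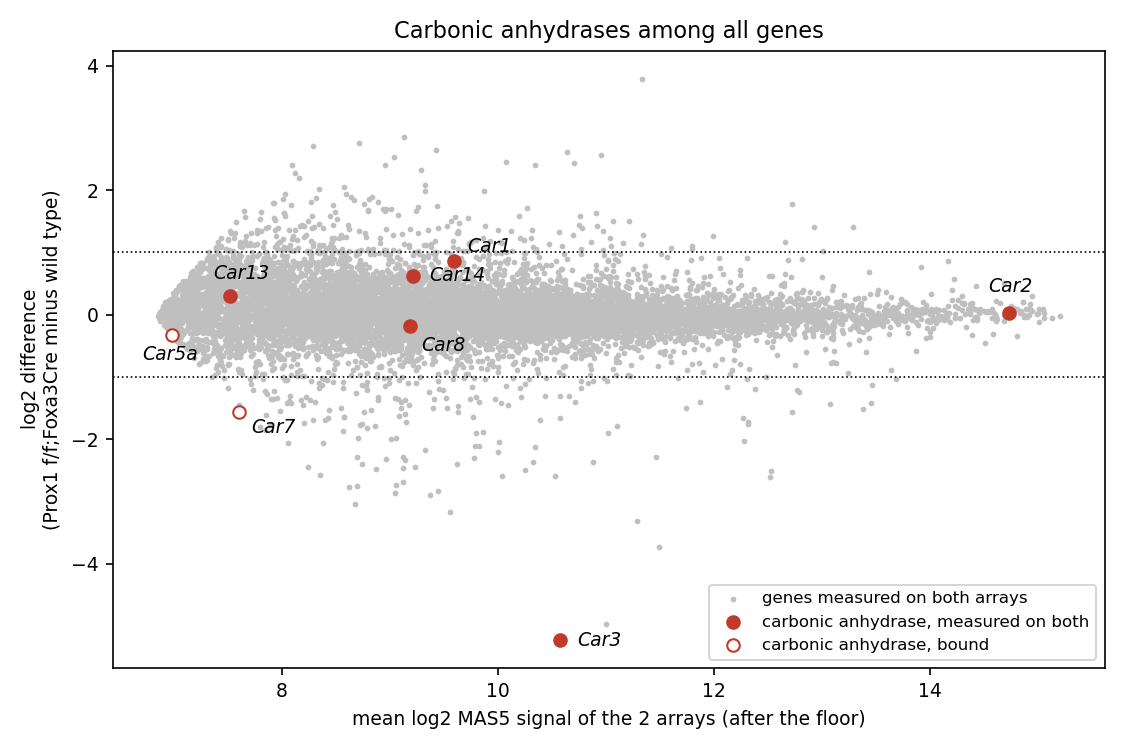
Log2 difference (knockout minus wild type) against the mean log2 MAS5 signal after the floor, for genes measured on both arrays in grey and for the 8 measured carbonic anhydrases in red, open where the value is a bound. Dotted lines mark 2-fold, and Car3 is the lowest of all plotted genes while Car2 sits at the bright end on 0.03.

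Car13, Car1, Car3 and Car2 lie next to one another on chromosome 3, in that order among named genes of the RefSeq table (GRCm38.p6). Along this block the log2 differences were 0.31, 0.87, -5.22 and 0.03, so the difference of Car3 was not shared by the carbonic anhydrase on either side of it. On the side of Car13 the nearest named genes were Rbis, E2f5 and Lrrcc1. Rbis read 5033 in the knockout and 5559 in wild type, a log2 difference of -0.14. E2f5, a transcription factor of the E2F family, read 662.2 in the knockout and 1799 in wild type, a log2 difference of -1.44, and its other probe sets gave -0.80 and -0.32. Lrrcc1, a centrosomal protein, was higher at 0.80 on the log2 scale, and its other probe sets gave 0.44 and 0.29. On the side of Car2, Sirpb1a was under the floor at 46.1 in the knockout and 79.4 in wild type, and Sirpb1b and Sirpb1c had no probe set of their own in the annotation used.

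**Figure D4:**
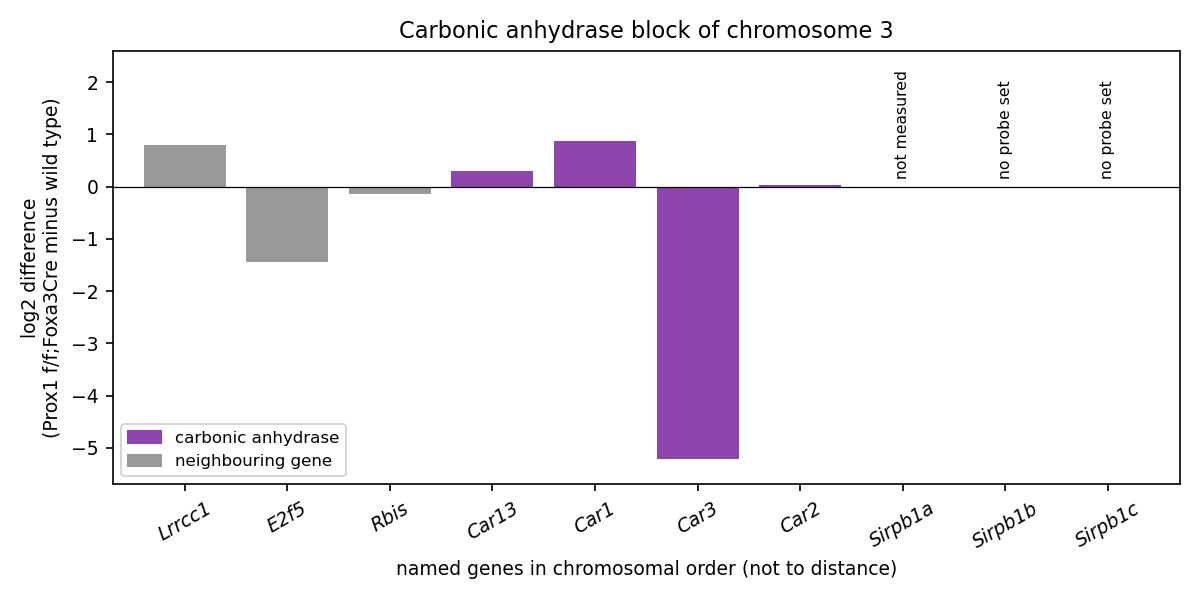
Log2 difference (knockout minus wild type) of the genes of the chromosome 3 block in their chromosomal order, not drawn to distance, with carbonic anhydrases in purple and neighbouring genes in grey. The Car3 bar reaches -5.22 between bars of 0.87 for Car1 and 0.03 for Car2.

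The rest of the family was largely undetected. Of 6 further carbonic anhydrases, Car5b, Car6, Car9, Car10, Car11 and Car15, 5 were under the floor on both arrays. Car10, a form without catalytic activity, read 85.3 in the knockout and 119.6 in wild type, a bound of 1.06-fold. Car9, a transmembrane form induced by hypoxia, read 109.9 in the knockout and 102.8 in wild type, just under the floor. Car5b, the second mitochondrial form, read 44.6 in the knockout and 56.3 in wild type. Car6, the secreted form of saliva, read 30.2 in the knockout and 52.5 in wild type. Car11, also without catalytic activity, read 54.4 in the knockout and 12.4 in wild type, and Car15 read 70.3 in the knockout and 54.6 in wild type.

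Transporters of bicarbonate, protons and gases showed 1 gene past the size mark. Of 22 listed, 20 had their own probe set and 11 were measured, 1 was at least 2-fold higher and 0 were at least 2-fold lower, with a median of 0.19. Slc4a4, an electrogenic sodium bicarbonate cotransporter, read 366.2 in the knockout and 167.0 in wild type, 2.19-fold higher, and a second probe set read 322.7 in the knockout and 159.7 in wild type. The anion exchanger Slc4a2 of epithelia followed at 556.4 in the knockout and 352.3 in wild type, a log2 difference of 0.66. Slc4a11 had a bound of -0.47, and the lactate transporter Slc16a3 had a difference of 0.45. The red cell anion exchanger Slc4a1, which works with cytosolic carbonic anhydrase in carbon dioxide transport, read 22823 in the knockout and 20063 in wild type, a log2 difference of 0.19.

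**Figure D5:**
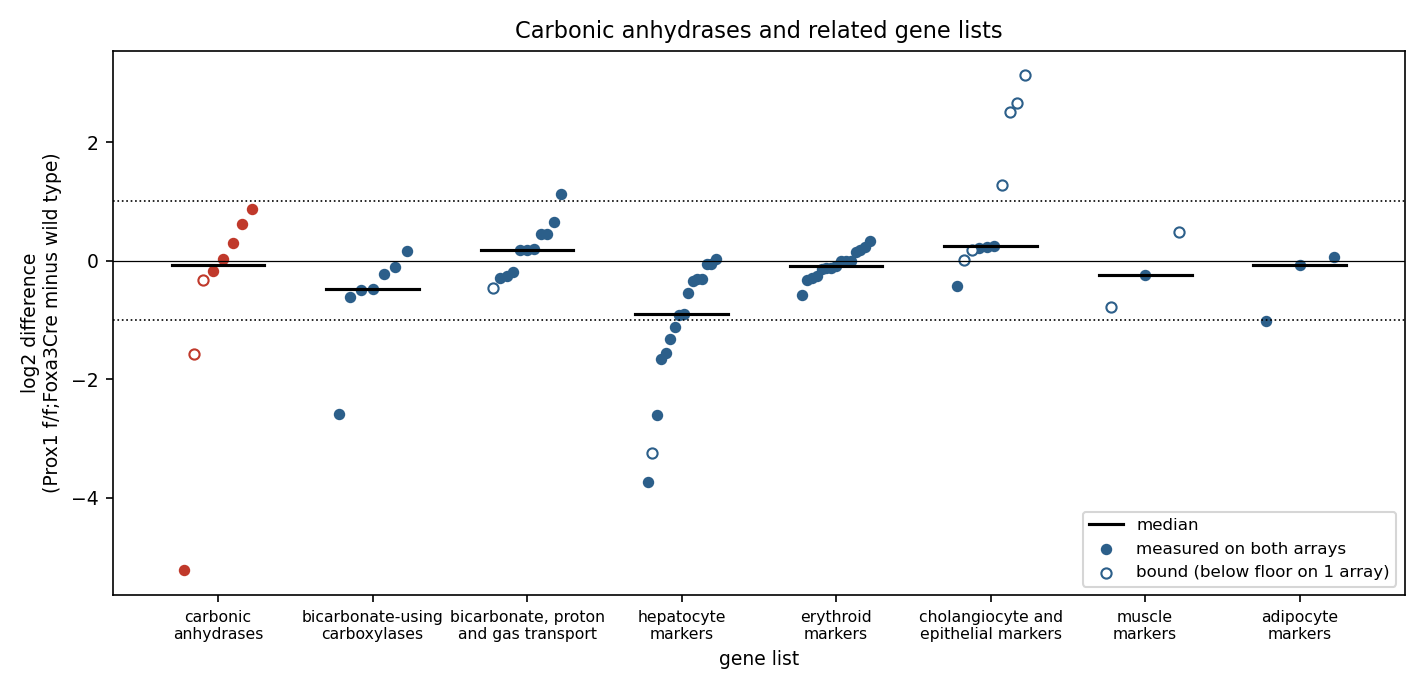
Log2 differences (knockout minus wild type) of the measured genes of each list, sorted within a list, with open symbols for bounds and a black bar at each median. The medians were -0.07 for carbonic anhydrases, -0.48 for bicarbonate-using carboxylases, 0.19 for transport genes, -0.90 for hepatocyte markers, -0.09 for erythroid markers, 0.24 for cholangiocyte and epithelial markers, -0.25 for 3 muscle markers and -0.07 for 3 adipocyte markers.

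Markers of further cell types of fetal liver were counted in the same way. Of 16 stellate and mesenchymal markers, 10 were at least 2-fold higher and 6 lay between, with a median of 1.22, led by the collagens Col1a1 (1.99) and Col6a1 (1.94) with Cdh11 (1.70) and Hand2 (1.70). Of 12 granulocyte markers, 7 were at least 2-fold higher and 5 lay between, with a median of 1.09, led by Fcnb (1.80), Chil3 (1.56), S100a9 (1.41) and Ms4a3 (1.34). Of 12 endothelial markers 0 passed the mark, and the median was 0.44, with Sox18 (0.69), Ramp2 (0.60), Plvap (0.57) and Pecam1 (0.55) the farthest. Of 11 measured macrophage and osteoclast markers, Marco (1.44) passed it and 10 lay between, with a median of 0.25, Aif1 (0.97), Adgre1 (0.77) and C1qa (0.42) next, and Mrc1 (-0.28), Cd68 (-0.13) and Acp5 (-0.10) below 0. Of 8 measured megakaryocyte markers, Itgb3 (a bound of 1.31) passed it and 7 lay between, with a median of 0.45, Gp6 (a bound just under the 2-fold mark), Gp1bb (0.71) and Vwf (0.56) being next. The summed signals were 40390 in the knockout and 19225 in wild type for the mesenchymal list and 76929 in the knockout and 36767 in wild type for the granulocyte list. Markers of pancreas, gut and stomach were mostly under the floor, with 5 of 17 measured and Pdx1 and Cdx2 undetected on both arrays. The exception past the 2-fold mark was the microvillus protein Vil1, at 259.6 in the knockout and 20.6 in wild type, a log2 bound of 1.20. Of the 5 measured, 3 lay above 0 and 2 below. Those below were Tff1 (-0.75) and Fabp2 (-0.71), both measured on both arrays, and Cela1 was at 0.33. Of 10 kidney and mesothelial markers 5 were measured, led by Tcf21 (1.40). The part of these lists in the carbonic anhydrase values was not tested.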

How the data were processed

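Liver RNA was hybridised to 1 single-colour Affymetrix array per genotype. The deposited values are intensity on a linear scale, made by the authors with MAS5 (per the submitters' processing notes, version not stated). The 2% trimmed mean was 500.0 on both arrays, so the values were used as deposited. MAS5 subtracts mismatch signal, so dim probe sets scatter widely and bright ones can be compressed. The number of arrays limits the precision.

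After leaving out 64 control probe sets, 34945 probe sets had 1 gene symbol in the platform annotation at GEO, 932 had several and 9160 were not listed. Of those with 1 symbol, 34741 had a gene identifier in the RefSeq table (GRCm38.p6), as did all 10 members. The floor was the higher of the arrays' 50th percentiles, 112.6. Named genes were all members with every probe set, all measured genes of the related family, carboxylase and neighbour lists, up to 4 per other list with the largest absolute difference, and Prox1; further genes and undetected markers named were chosen after their values were seen. The rule also named the 3 genes of nearest signal pair to each member 2-fold apart; these are not reported, since signals of different probe sets are not comparable. Members and lists were chosen with earlier results of these data known. Of the members, 5 matched a promoter entry (RefSeq). Alternatives varied the floor, the filter, the probe set rule, the normalization, the pseudocount and the size mark. Counting was run on simulated arrays with equal noise at every signal and known shifts in genes measured on both arrays. That run checks the code only and has no bearing on calls that rest on the floor. Software was Python 3.11.15 with pandas 2.3.3, numpy 2.4.6, matplotlib 3.10.9 and statsmodels 0.14.6.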

Additional observations from a re-analysis of the deposited data

How the results depend on the processing

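Across 9 alternatives, 0 carbonic anhydrases were at least 2-fold higher in any setting. The count at least 2-fold lower was 2 (Car3 and Car7) as reported and also under quantile normalization, with the median of log2 differences set to 0, under lowess correction and on a log2(signal + 50) scale. It was 1, Car3 alone, at 3-fold, at a floor of the 60th percentile, and when probe sets were summarised by their median. It was 3, with Car5a added, at a floor of the 30th percentile and without any floor or filter. The shares of all genes lower and higher changed with the setting too. They were 2.13% and 3.27% of 11397 genes as reported, and 2.8% and 5.34% of 14784 at the 30th percentile floor. Without floor or filter they were 8.08% and 13% of 18193, and at the 60th percentile floor 2.01% and 2.53% of 9851. By the median of probe sets they were 1.78% and 2.09% of 11433, and at 3-fold 0.895% and 0.869% of 11397. Quantile normalization gave 2.31% and 2.9% of 11540, and setting the median to 0 gave 2.21% and 3.06% of 11422. Lowess correction gave 2.24% and 3.06% of 11425, and the log2(signal + 50) scale 2.2% and 3.33% of 11397. The log2 difference of Car3 ran from -5.24 to -2.29 over the 8 alternatives that give it a value, and that of Car7 from -2.27 to -0.72. Car1 stayed between 0.81 and 0.87 and Car14 between 0.57 and 0.62. Car2 ran from -0.00079 (quantile normalization) to 0.03. The members' median was within 0.13 of 0 in each setting, with either sign. Dim probe sets, those of Car4, Car5a, Car12 and Car13 among them, are limited by signal over background. No paired analysis was possible because each genotype has 1 array.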

Other observations

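Among urea cycle and ammonia genes, which are linked to Car5a through the bicarbonate that Cps1 uses, Cps1 and Arg1 passed the 2-fold mark. Of 10 listed, 9 had their own probe set and 8 were measured. At that mark 2 were lower, 0 higher and 6 between, and the median log2 difference was -0.41. Arginase (Arg1), which releases urea, read 298.4 in the knockout and 749.2 in wild type. Ornithine transcarbamylase (Otc) read 1697 in the knockout and 3359 in wild type, a log2 difference of -0.99, and -1.44 on a second probe set. Nags, which makes the activator of Cps1, had a difference of -0.54. Glutamine synthetase (Glul) was the member above 0, at 6221 in the knockout and 5165 in wild type.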
